A study of Homo sapiens with 7 samples.

Results

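The 31 genes described here encode factors that cut the 3′ end of human messenger RNA, add its poly(A) tail and bind that tail. They were taken by name from a table of 19978 genes, and all 31 were found there and were expressed well enough to be tested. Of them, 7 act on histone messages and 24 on the polyadenylated majority. HEK-293, an established human embryonic kidney cell line, was kept for 48 h in medium with the vehicle DMSO, which the study's methods give for every group. The medium was at pH 7.4 (control, 2 samples), at pH 6.6 (acidosis, 3 samples), or at pH 7.4 with SRPIN340 at 10 µM (2 samples). SRPIN340 is an inhibitor of the kinases that phosphorylate serine- and arginine-rich splicing factors. Poly(A)-selected RNA was sequenced, and the authors deposited estimated counts per gene. All 7 samples come from the same cell line, and the study's methods call the samples of a group biological repeats, each run in several replicates. Neither the methods nor the labels say that the repeats were separate cultures or how the replicates were joined, so the p-values measure the spread between these samples.

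Most messenger RNAs are cut downstream of a hexamer, usually AATAAA, which the CPSF complex reads, and CstF binds a GU-rich stretch behind the cut. CFIm binds upstream sites and helps choose among several possible ends, CFIIm joins cleavage to the end of transcription, and a poly(A) polymerase then adds the tail that poly(A)-binding proteins coat. Replication-dependent histone messages take another route. They carry no poly(A) tail and end in a short hairpin that SLBP binds, while the U7 particle pairs with a site downstream and the endonuclease CPSF3 makes the cut. These histone genes lie in the histone locus body, a nuclear domain built around NPAT.

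The sites that these factors act on are shown first, because the histone branch and the poly(A) branch recognise unlike signals. Only hairpins with a perfectly paired stem of 6 base pairs and a loop of 4 nt, TTT and any base, were searched for. Of 69 replication-dependent histone genes in the table, 64 had such a hairpin within 200 nt of the stop codon of the canonical transcript. It lay 22 to 67 nt behind the stop codon, and 40 of the 64 genes shared the same 16 nt. Within that pattern, 5 forms of the hairpin occurred. The lines below give it in capitals, with its flanks, for the 4 hairpin-bearing histone genes with the highest level in acidosis, read 5′ to 3′ from the GRCh38 reference.
H1-2, chr6:26055739-26055764, minus strand: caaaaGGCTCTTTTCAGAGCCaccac
H2BC21, chr1:149886183-149886208, minus strand: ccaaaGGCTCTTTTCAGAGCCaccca
H2BC26, chr1:228458533-228458558, plus strand: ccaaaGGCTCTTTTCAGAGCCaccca
H2BC12, chr6:27146361-27146386, minus strand: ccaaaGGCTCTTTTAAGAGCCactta
H1-2, which encodes a linker histone, was at 31.9 CPM on average in control and 849 CPM in acidosis, and the H2B genes H2BC21, H2BC26 and H2BC12 went from 4.01, 5.50 and 24.3 CPM to 547, 193 and 193 CPM, where CPM are counts per 1000000 counts of the library after TMM scaling of its total.

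In the last 50 nt of the canonical transcript, 21 of the 31 members (67.7%) carried AATAAA, 3 (9.7%) carried ATTAAA and 7 (22.6%) carried neither. Over all protein-coding genes these shares were 63.7%, 14.0% and 22.3%, which are close to those of the members. CASP8AP2, CPSF1, FIP1L1, SCAF4, SCAF8, SLBP and SYMPK were the members with neither hexamer in that window. The lines below show the hexamer in capitals in the message ends of 8 members that hold it, chosen because they moved in opposite directions in acidosis relative to the typical gene: CPSF3, CPSF6, CSTF2 and NPAT, which fell, and CPSF7, CSTF2T, PCF11 and PABPC4, which rose (CSTF2T turning lower when libraries are scaled by total count only).
CPSF3, chr2:9473062-9473091, plus strand: tttgttacctaaAATAAAatgcattcgttt
CPSF6, chr12:69274324-69274353, plus strand: tcttgtattgaaAATAAAacaaacttttga
CPSF7, chr11:61402734-61402763, minus strand: tgaaaattgtgtAATAAActtgatgacgct
CSTF2, chrX:100841486-100841515, plus strand: tgctcaagatgaAATAAAaacagaaatcaa
CSTF2T, chr10:51695491-51695520, minus strand: tttcatgcagaaAATAAAgatacaattaag
NPAT, chr11:108157217-108157246, minus strand: aattcatatacaAATAAAataagtttactt
PCF11, chr11:83185761-83185790, plus strand: attcatacatgtAATAAAtagaatgatgaa
PABPC4, chr1:39560824-39560853, minus strand: cttacgtttcccAATAAAgaaaaaaaatct
In these 8 message ends the hexamer began 20 to 28 nt before the annotated 3′ end, at 28 nt in CPSF3 and at 23 nt in CPSF6, CPSF7, CSTF2 and CSTF2T alike.

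Library totals were 13615816 to 24110460 counts, with the lowest in acidosis, so weakly expressed genes are measured less precisely there. The 31 members together held 0.371% to 0.424% of the counts in every library. Levels are given as counts per 1000000 counts of the library (CPM) with the library total scaled by TMM, a method that assumes most genes keep their level. Between genes they are compared per kb of canonical transcript, except where CPM or counts are named, which also depend on transcript length. This scaling matters for acidosis: scaling by the total count alone lowered the median change over all genes from -0.05 to -0.63 on the log2 scale. Directions are therefore relative to the typical gene, and what total-count scaling does to them is given beside the results. A gene passed at an adjusted p under 0.05 in edgeR's quasi-likelihood test across 14863 genes, with Benjamini-Hochberg adjustment. In bulk RNA, fewer cells that express a gene and less of its RNA per cell cannot be told apart. Of the kidney and neurofilament genes that mark HEK-293, NEFL, NEFM, INA, LHX1 and PAX2 were all detected. In acidosis NEFL (0.66) and NEFM (1.65) rose, INA (-0.70) and PAX2 (-1.93) fell and LHX1 (0.11) did not pass on the log2 scale, and with total-count scaling LHX1 passed as lower (-0.47) and NEFL did not pass (0.09); their part in the members' values was not tested. The blood, endothelial and liver markers PTPRC, CD3E, PECAM1 and ALB summed to 0.216 to 1.51 CPM, and CD3E was at 0 throughout.

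In acidosis, 18 of the 31 members rose and 7 fell against control. Over all genes tested, 32.5% rose and 34.2% fell, so the share of members that rose was above that background and the share that fell was below it. The members had a median of 0.46 on the log2 scale, against -0.05 over all genes. With total-count scaling, 4 members rose and 14 fell (16.2% and 55% of all genes), so that both shares of the members were then below those of all genes, and the members' median was -0.12 against -0.63. The members' median thus stood above that of all genes under both scalings, while most members that passed were higher under TMM and lower with total-count scaling. The 4 that rose under both scalings were CPSF1, PCF11, PABPC1 and PABPC4. The 7 that fell under both were SLBP, NPAT, CPSF3, CSTF2, CSTF3, CPSF6 and CLP1. Past a log2 fold change of 1 stood 3 risers and 3 fallers, 6 of 31 members against 33.5% of all genes. The groups did not overlap for 27 members (19 higher, 8 lower), against 76.5% of all genes.

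**Figure D1:**
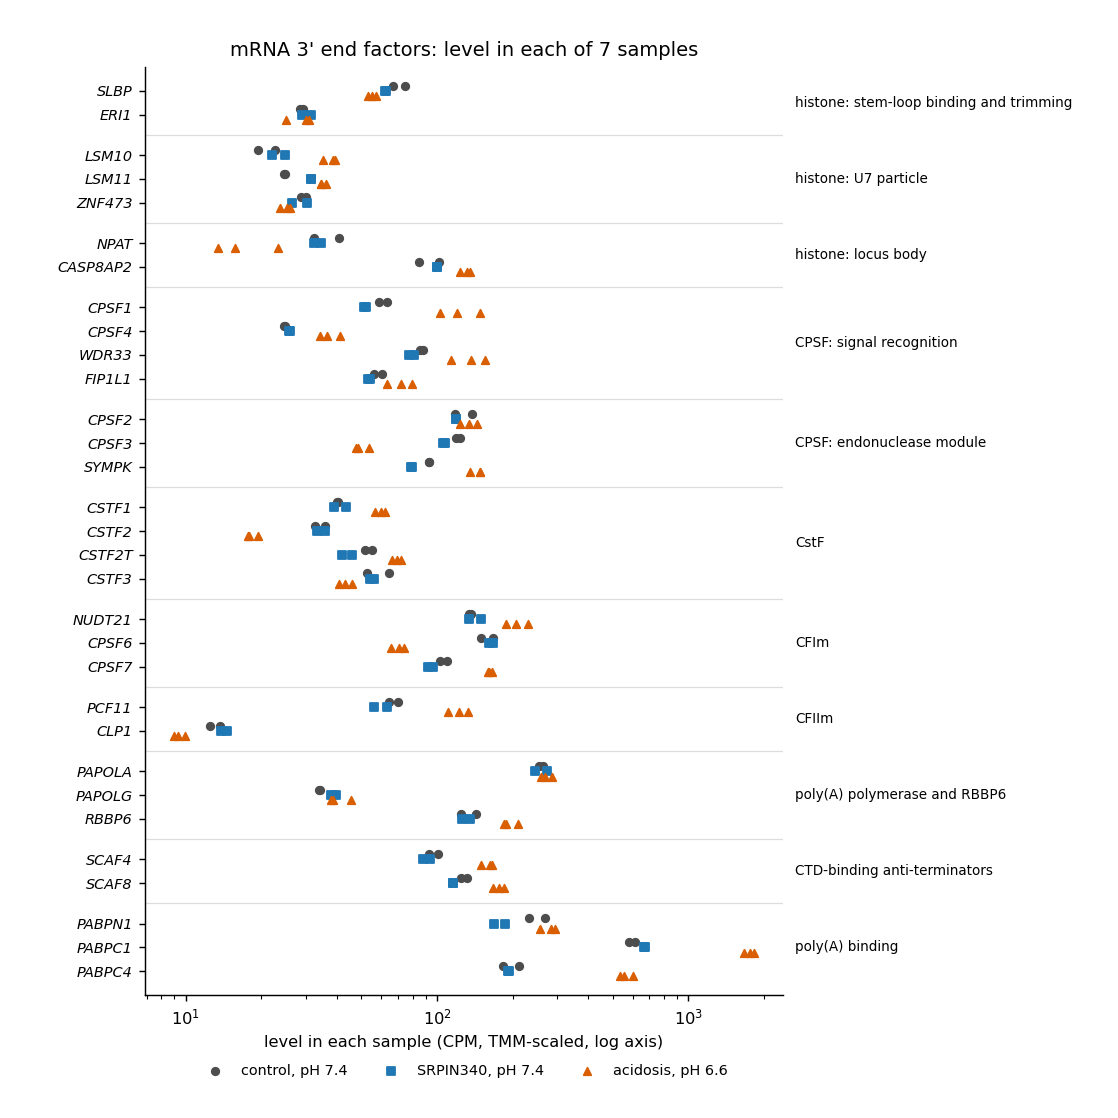
Level of each of the 31 factors (rows, ordered by role) in each of 7 samples, in TMM-scaled CPM on a log axis; circles are control, squares SRPIN340 and triangles acidosis. PABPC1 is the most abundant by CPM, from 582 in a control sample to 1820 in an acidosis sample, and the control and SRPIN340 points do not overlap for 16 members.

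Among the histone message factors, 3 of 7 rose in acidosis, 2 fell and 2 did not pass, against 32.5% of all genes that rose and 34.2% that fell. With total-count scaling 0 of these 7 rose and 4 fell, against 16.2% and 55%. SLBP, the hairpin-binding protein (ENSG00000163950.13, chromosome 4 of GRCh38, 1692731 to 1712344), stood at 67.1 and 74.4 CPM in control, 62.8 and 62.3 CPM with SRPIN340, and 56.9, 53.0 and 54.9 CPM in acidosis. Every acidosis sample lay below every other sample, and the log2 fold change against control was -0.36 (standard error 0.09, adjusted p = 0.00401), or -0.94 with total-count scaling. ERI1, an exonuclease that trims the histone message end, was at 28.6 and 29.2 CPM in control, 29.01 and 31.5 CPM with SRPIN340, and 31, 30.1 and 25.0 CPM in acidosis. These ranges overlap and no change passed (log2 fold change -0.01, adjusted p = 0.964), although with total-count scaling ERI1 passed as lower, at -0.58 (adjusted p = 0.00195).

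LSM10 and LSM11 replace a pair of the usual Sm proteins in the ring of the U7 particle, and both rose relative to the typical gene, LSM11 taking the opposite sign with total-count scaling. LSM10 was at 19.4 and 22.7 CPM in control, 24.9 and 22.1 CPM with SRPIN340, and 39.2, 35.3 and 38.6 CPM in acidosis, a rise of 0.84 (standard error 0.12, adjusted p = 0.000191) that fell short of the threshold with total-count scaling (0.27, adjusted p = 0.0746). LSM11 was at 24.8 and 24.5 CPM in control, 31.4 and 31.6 CPM with SRPIN340, and 34.6, 34.4 and 36.2 CPM in acidosis. Its rise of 0.51 (standard error 0.10, adjusted p = 0.00122) turned to -0.07 with total-count scaling. The SRPIN340 samples of LSM11 lay between the other groups. Neither the change with SRPIN340 (0.35, adjusted p = 0.125) nor the difference between acidosis and SRPIN340 (0.16, adjusted p = 0.179) passed, although with total-count scaling acidosis passed as lower than SRPIN340 (-0.46, adjusted p = 0.0017). ZNF473, a zinc finger protein of the U7 particle, was at 28.9 and 30.2 CPM in control, 26.5 and 30.2 CPM with SRPIN340, and 23.6, 25.9 and 25.4 CPM in acidosis. The acidosis samples were below all others without passing (log2 fold change -0.24, adjusted p = 0.0804); with total-count scaling ZNF473 passed as lower, at -0.82.

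The scaffolds of the histone locus body moved in opposite directions. NPAT, which activates histone genes (ENSG00000149308.17, chromosome 11, 108157215 to 108222638), was at 40.6 and 32.3 CPM in control, 32.4 and 34.4 CPM with SRPIN340, and 15.7, 23.2 and 13.4 CPM in acidosis. It fell by 1.07 on the log2 scale (standard error 0.20, adjusted p = 0.00104) and by 1.64 with total-count scaling, and its standard error was the largest of the 7. CASP8AP2, also called FLASH, joins the cleavage machinery to the U7 particle. It was at 102 and 84.6 CPM in control, 99.5 and 100 CPM with SRPIN340, and 123, 132 and 135 CPM in acidosis, a rise of 0.48 (standard error 0.09, adjusted p = 0.00117) that turned to -0.09 with total-count scaling. Beside these factors, the summed level of the 69 histone genes was 142 and 167 CPM in control, 118 and 101 CPM with SRPIN340, and 2901, 2636 and 2891 CPM in acidosis. The libraries were poly(A)-selected, so these sums count histone transcripts that the capture retained. Of the histone genes, 22 and 23 were over 1 CPM in control, 15 and 16 with SRPIN340, and 37 to 39 in acidosis. Summed DNA replication genes were at 2128 and 2073 CPM in control, 1704 and 1707 CPM with SRPIN340, and 2163, 2025 and 2107 CPM in acidosis. Of 10 such genes tested, 3 rose and 4 fell in acidosis under TMM scaling, against 32.5% and 34.2% of all genes. With total-count scaling 2 rose and 7 fell, against 16.2% and 55%. The part of the DNA replication genes in the histone sums was not tested.

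**Figure D2:**
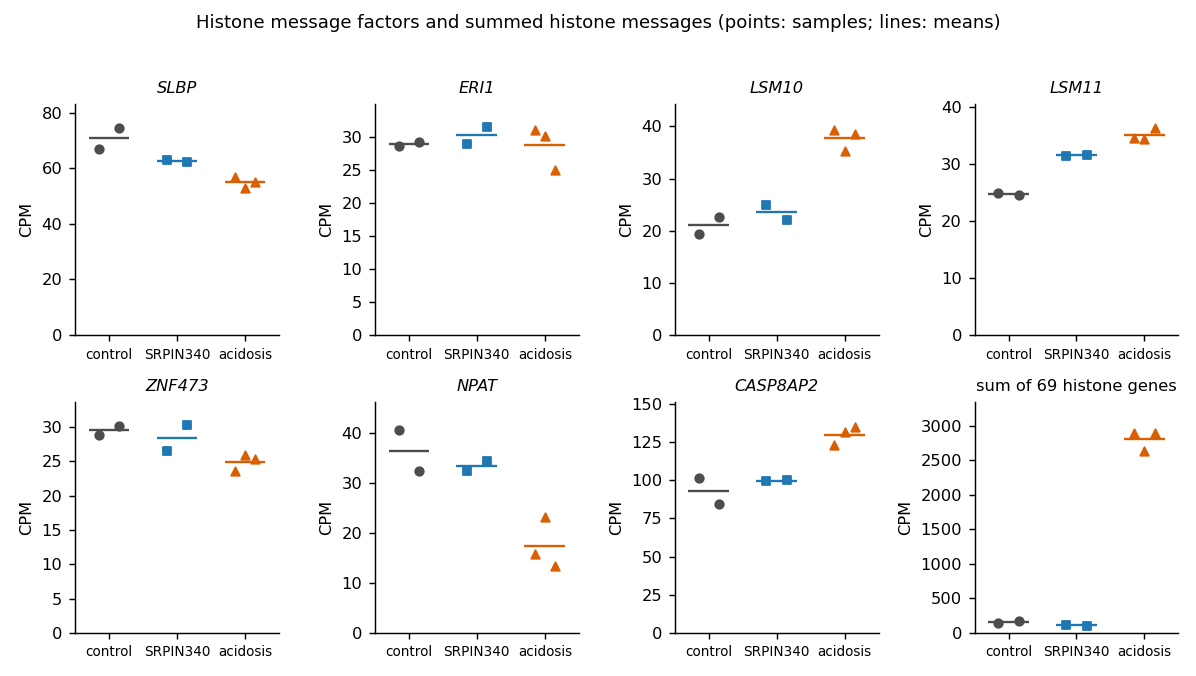
The 7 histone message factors and the sum of 69 replication-dependent histone genes, in TMM-scaled CPM from 0; points are samples and lines group means. The histone sum is 2636 to 2901 CPM in acidosis against 101 to 167 CPM elsewhere, while the factors lie between 13.4 and 135 CPM; LSM11 and CASP8AP2 turn lower with total-count scaling.

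All 4 members that form the signal-reading part of CPSF rose in acidosis, FIP1L1 taking the opposite sign with total-count scaling. CPSF1, its large scaffold subunit, was at 58.6 and 63.2 CPM in control, 51.0 and 52.2 CPM with SRPIN340, and 148, 103 and 120 CPM in acidosis. The acidosis samples lay above all others, and CPSF1 rose by 1.03 (standard error 0.14, adjusted p = 0.000106), or by 0.45 with total-count scaling. CPSF4 and WDR33, which touch the hexamer itself, rose by 0.59 and 0.64, but by 0.02 and 0.06, without passing, when only the total count was used. FIP1L1, which recruits the poly(A) polymerase, rose by 0.30 (adjusted p = 0.03) and turned to -0.27, passing as lower, with total-count scaling (adjusted p = 0.0387). Its call was also lost with control and acidosis fitted alone (0.28, adjusted p = 0.0667), and without either control sample, without either SRPIN340 sample or without acidosis replicate 3, where the adjusted p was 0.0541 to 0.189.

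The subunits around the endonuclease did not move as a unit. CPSF3, the nuclease that cuts both polyadenylated and histone messages (ENSG00000119203.14, chromosome 2, 9423651 to 9473101), was at 123 and 120 CPM in control, 106 and 108 CPM with SRPIN340, and 53.6, 47.5 and 48.6 CPM in acidosis. It had the largest fall among the members, 1.28 on the log2 scale (standard error 0.08, adjusted p = 6.19e-07), and fell by 1.85 with total-count scaling. CPSF2, its partner without nuclease activity, was at 118 to 138 CPM in control and 123 to 144 CPM in acidosis and did not pass (0.06, adjusted p = 0.577), while with total-count scaling it passed as lower, at -0.51. SYMPK, the scaffold symplekin that holds them, was at 92.7 and 92.8 CPM in control, 79.0 and 79.2 CPM with SRPIN340, and 148, 135 and 148 CPM in acidosis. It rose by 0.63 (standard error 0.07, adjusted p = 4.4e-05), which shrank to 0.06 without passing under total-count scaling. Per kb of transcript, CPSF3 was the most abundant of these subunits in control, at 53.7 CPM per kb against 22.7 for SYMPK and 9.85 for CPSF2. In acidosis CPSF3 stood at 22.1 CPM per kb, SYMPK at 35.3 and CPSF2 at 10.3.

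In CstF, the RNA-binding subunit exists in alternative forms from separate genes. CSTF2 (CstF-64; ENSG00000101811.15, chromosome X, 100820391 to 100841520) was at 35.9 and 32.6 CPM in control, 33.1 and 35.7 CPM with SRPIN340, and 17.7, 17.9 and 19.4 CPM in acidosis. It fell by 0.90 (standard error 0.11, adjusted p = 5.71e-05), and by 1.48 with total-count scaling. CSTF2T (tauCstF-64), an autosomal copy with a single exon, was at 55.3 and 51.7 CPM in control, 42.0 and 46.0 CPM with SRPIN340, and 66.2, 72.0 and 69.6 CPM in acidosis, a rise of 0.37 (standard error 0.09, adjusted p = 0.00487) that turned to -0.20 with total-count scaling and lost its call without control replicate 2 (0.30, adjusted p = 0.0531). The log2 ratio of CSTF2 to CSTF2T within a library does not depend on that scaling. It was -0.62 and -0.66 in control, -0.34 and -0.37 with SRPIN340, and -1.90, -2.01 and -1.84 in acidosis. Per kb, CSTF2 made 50.2% to 50.9% of the pair's summed level in control and 28.5% to 30.9% in acidosis, shares that were worked out after the ratios had been seen. As paralogues they can share reads, which the estimated counts may split unevenly. CSTF1, which binds the polymerase, rose by 0.56 and was at -0.01 with total-count scaling. CSTF3, the dimer that holds the complex, fell by 0.43 (adjusted p = 0.00517; -1.01 with total-count scaling), a call lost without control replicate 1 (-0.29, adjusted p = 0.0643).

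CFIm pairs the sequence-reading subunit NUDT21 with CPSF6 or CPSF7, and these alternative partners moved apart under TMM scaling. CPSF6 (ENSG00000111605.18, chromosome 12, 69239569 to 69274358) was at 167 and 150 CPM in control, 161 and 167 CPM with SRPIN340, and 65.5, 73.8 and 70.2 CPM in acidosis, a fall of 1.18 (standard error 0.08, adjusted p = 1.07e-06) and of 1.76 with total-count scaling. CPSF7 was at 102 and 110 CPM in control, 96.3 and 92.2 CPM with SRPIN340, and 161, 166 and 159 CPM in acidosis, a rise of 0.61 (standard error 0.07, adjusted p = 3.79e-05) that came to 0.04 without passing under total-count scaling. The log2 ratio of CPSF6 to CPSF7 was 0.71 and 0.45 in control, 0.74 and 0.85 with SRPIN340, and -1.30, -1.17 and -1.18 in acidosis. Thus CPSF6, with the longer transcript (6584 against 3487 nt), had more counts than CPSF7 in every control and SRPIN340 library and fewer in every acidosis library. Its level per kb was below that of CPSF7 throughout. Per kb, CPSF6 made 42.0% to 46.4% of the pair's summed level in control, 46.9% to 48.9% with SRPIN340 and 17.7% to 19.1% in acidosis. Under TMM scaling the sum itself was 54.2 to 54.7 CPM per kb in control and 56.1 to 58.7 in acidosis. Unlike the shares, this sum depends on the scaling: with total-count scaling CPSF6 was at -1.76 and CPSF7 at 0.04. NUDT21 rose by 0.62 (0.04 with total-count scaling, not passed). It shares 45.9% of its exon bases with another gene on the same strand, at 10.8 to 13.3 CPM in acidosis, and rose by 0.53 with the counts of both summed.

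In CFIIm, PCF11 and CLP1 also moved apart. PCF11, which binds the tail of RNA polymerase II and promotes termination, was at 70.1 and 64.5 CPM in control, 56.3 and 63.4 CPM with SRPIN340, and 133, 111 and 122 CPM in acidosis. It rose by 0.86 (standard error 0.10, adjusted p = 4.39e-05), and by 0.29 with total-count scaling (adjusted p = 0.024). CLP1, an RNA kinase, was the least abundant member by CPM, at 12.4 and 13.62 CPM in control, 13.8 and 14.6 CPM with SRPIN340, and 9.92, 9.0 and 9.29 CPM in acidosis. It fell by 0.47 (standard error 0.14, adjusted p = 0.0151; -1.04 with total-count scaling), a call lost without control replicate 2 (adjusted p = 0.0868). Both overlap genes on the opposite strand in part, 15.2% of the exon bases of PCF11 with PCF11-AS1 and 11.9% of those of CLP1 with YPEL4. Of the other members, WDR33 shares 25.7% with SFT2D3, FIP1L1 14.6% with LNX1 and PABPC4 10.9% with PABPC4-AS1 on the opposite strand. SCAF8 shares 13.1% with TIAM2 on the same strand. Whether the counting used strand is not given in the sources used here. The log2 ratio of PCF11 to CLP1 was 2.49 and 2.24 in control, 2.03 and 2.11 with SRPIN340, and 3.75, 3.61 and 3.71 in acidosis.

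**Figure D3:**
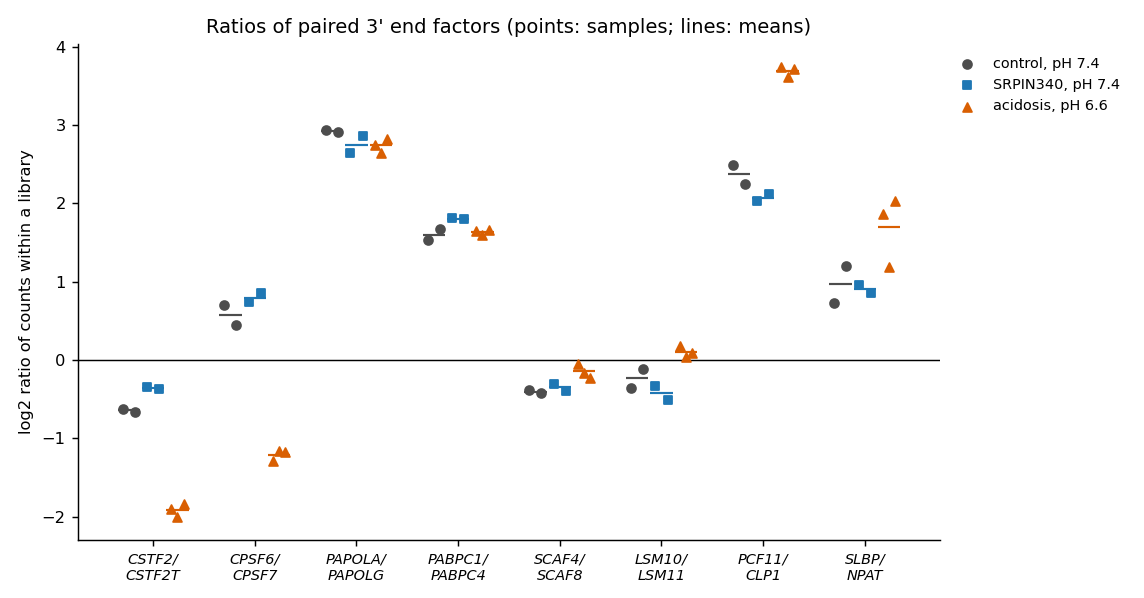
Log2 ratio of the counts of 8 pairs of factors within each library; points are samples, lines group means. Acidosis lies apart from control for CSTF2/CSTF2T (-1.92 against -0.64 on average), CPSF6/CPSF7 (-1.21 against 0.58) and PCF11/CLP1 (3.69 against 2.37), and overlaps it for PABPC1/PABPC4 and SLBP/NPAT.

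Over the 8 pairs, the difference in mean log2 ratio between acidosis and control was -1.79 for CPSF6/CPSF7, 1.32 for PCF11/CLP1 and -1.27 for CSTF2/CSTF2T. It was 0.73 for SLBP/NPAT, 0.33 for LSM10/LSM11, 0.26 for SCAF4/SCAF8, -0.18 for PAPOLA/PAPOLG and 0.04 for PABPC1/PABPC4. With 3 samples against 2, an exact two-sided permutation test cannot give a p below 0.2. The 6 pairs whose groups did not overlap reached that smallest p (Benjamini-Hochberg adjusted p = 0.267 over the 8 pairs), and SLBP/NPAT gave p = 0.4 and PABPC1/PABPC4 p = 0.8 in the same exact test. With SRPIN340 the differences were between -0.30 and 0.29, and the smallest p that 2 samples against 2 allow is 0.333 in this exact test. The ratio differences of acidosis for the first 3 pairs exceeded the spread within each group, where the SD was 0.03 to 0.18 in control and acidosis.

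The poly(A) polymerases passed in neither direction. PAPOLA, the main nuclear enzyme, was at 263 and 254 CPM in control and 258, 286 and 268 CPM in acidosis (0.07, adjusted p = 0.448), and PAPOLG was at 34.3 and 34.0 CPM against 38.4, 45.6 and 37.9 CPM (0.25, adjusted p = 0.0694). With total-count scaling both passed as lower, at -0.51 and -0.32. RBBP6, which activates the nuclease, was at 142 and 124 CPM in control, 125 and 135 CPM with SRPIN340, and 184, 188 and 210 CPM in acidosis. It rose by 0.54 (standard error 0.09, adjusted p = 0.000439) and was at -0.03 with total-count scaling. Of the anti-terminators that bind the polymerase tail and keep it from using early poly(A) sites, SCAF4 was at 101 and 92.8 CPM in control, 93.7 and 88.1 CPM with SRPIN340, and 162, 165 and 150 CPM in acidosis. SCAF4 rose by 0.71 (standard error 0.08, adjusted p = 2.77e-05; 0.14 with total-count scaling, not passed). SCAF8 rose by 0.46, which turned to -0.12 with total-count scaling.

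The cytoplasmic poly(A)-binding proteins had the largest rises of the set, under either scaling. PABPC1, which coats tails and links them to translation, was at 613 and 582 CPM in control, 672 and 668 CPM with SRPIN340, and 1668, 1820 and 1757 CPM in acidosis. PABPC1 rose by 1.55 on the log2 scale (standard error 0.06, adjusted p = 3.68e-08), to 2.93-fold its control level, and by 0.97 with total-count scaling. PABPC4, its inducible relative (ENSG00000090621.15, chromosome 1, 39560709 to 39576790), was at 212 and 183 CPM in control, 191 and 193 CPM with SRPIN340, and 534, 600 and 556 CPM in acidosis. It rose by 1.51 (standard error 0.08, adjusted p = 2.91e-07), and by 0.94 with total-count scaling. Every acidosis sample of both genes lay above every other sample. Per kb, PABPC1 made 76.0% to 77.8% of their summed level in control and 76.9% to 77.6% in acidosis. PABPC3, a close copy of PABPC1 with which reads could be shared, was listed at 0 in every sample, as were PABPC5 and PABPN1L.

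PABPN1, the nuclear poly(A)-binding protein that sets tail length (ENSG00000100836.11, chromosome 14, 23321457 to 23326163), was the only member to pass with SRPIN340. It was at 269 and 233 CPM in control, 169 and 186 CPM with SRPIN340, and 296, 257 and 283 CPM in acidosis, so the SRPIN340 samples were the lowest and the other groups overlapped. It fell by 0.50 with SRPIN340 (standard error 0.10, adjusted p = 0.0357; -0.46 and adjusted p = 0.0427 with total-count scaling) and was at 0.15 in acidosis (adjusted p = 0.153; -0.42 and passed as lower with total-count scaling). Tested directly, acidosis was above SRPIN340 by 0.65 (adjusted p = 0.000125), which was 0.04 with total-count scaling. The SRPIN340 call was lost without either control sample, without either SRPIN340 sample or without acidosis replicate 3, where the adjusted p was 0.0561 to 0.279. PABPN1 shares 39.3% of its exon bases with the read-through gene BCL2L2-PABPN1, which was at 5.94 to 16.9 CPM over the samples, and summing both gave -0.47 (adjusted p = 0.0378).

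With SRPIN340, 0 of 31 members thus rose and 1 fell, against 0.767% and 1.53% of all genes in edgeR's test. At an unadjusted p under 0.05 in edgeR's test, 2 members were higher and 3 lower, against 1212 and 1409 of all 14863 genes. DESeq2 also gave 0 members higher and 1 lower, against 324 and 587 of all genes. None was past a log2 fold change of 1 (0.323% of all genes). The control and SRPIN340 samples did not overlap for 16 members, 5 higher and 11 lower, against 54.1% of all genes. The median log2 fold change of the members was -0.06. Tested directly against SRPIN340, acidosis gave 18 members higher and 6 lower, against 32.8% and 35% of all genes, with 6 past a log2 fold change of 1 (34.6% of all genes). With total-count scaling it gave 5 higher and 14 lower (15.8% and 56.9%).

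**Figure D4:**
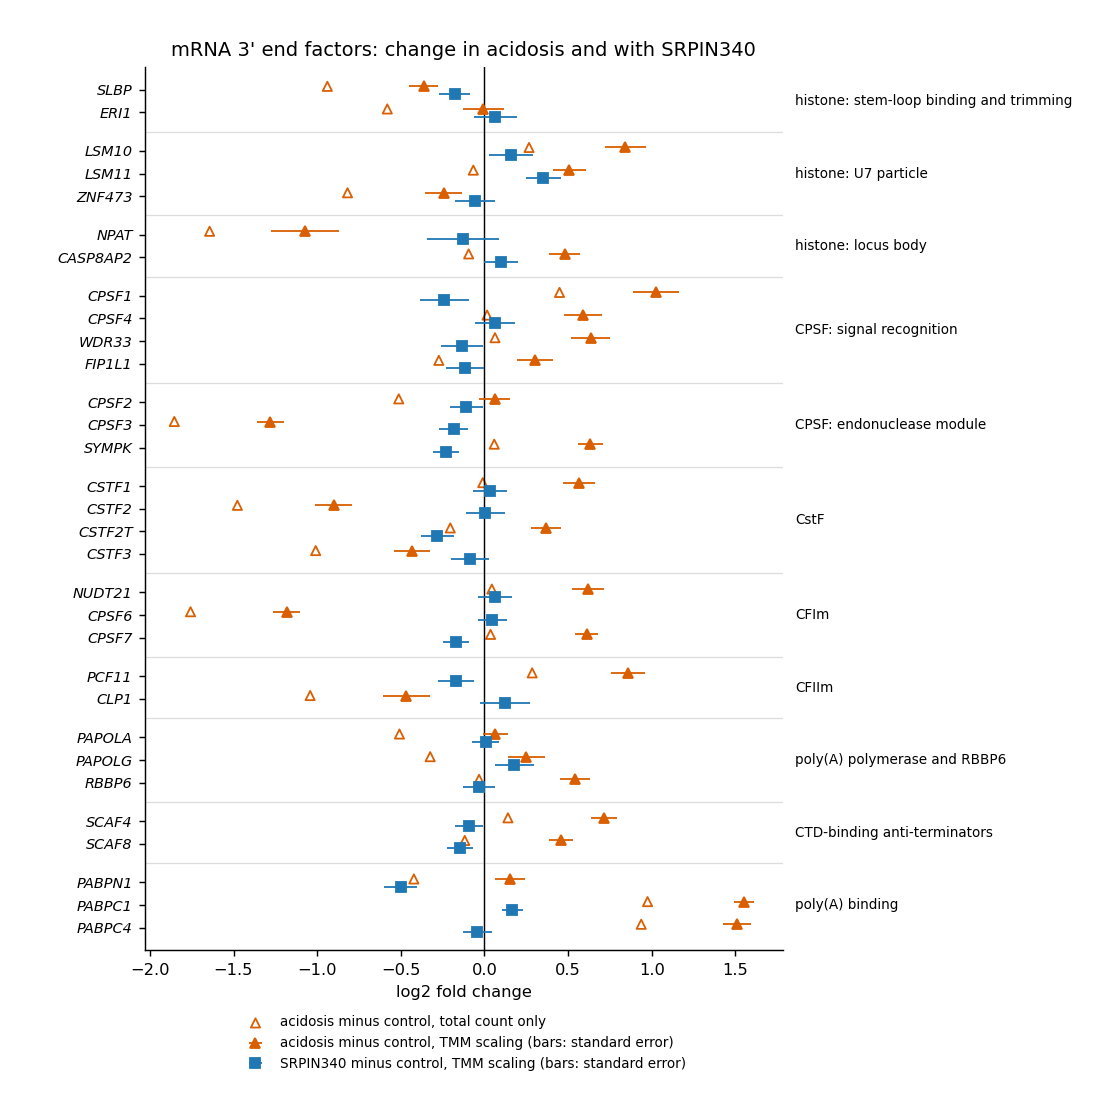
Log2 fold change of each factor in acidosis (filled triangles) and with SRPIN340 (squares) against control with TMM scaling, with the standard error as bars; hollow triangles show acidosis with libraries scaled by total count only. That scaling moves every acidosis value lower, so that 7 of the 18 risers take a negative sign, while PABPC1, PABPC4, CPSF1 and PCF11 stay above 0 and pass.

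The wider pathway was read from 7 lists with 82 genes, of which 79 were tested. In acidosis 33 rose and 28 fell, with a median of -0.01, against 32.5% and 34.2% of all genes; with total-count scaling 11 rose and 56 fell, against 16.2% and 55%. The counts of each list that follow stand against these same shares of all genes. The Integrator complex, which ends small nuclear RNAs and is built around a nuclease akin to CPSF3, had 11 of 15 members lower and 3 higher, with a median of -0.59, and with total-count scaling 13 lower and 1 higher, with a median of -1.17 against -0.63 for all genes. The largest falls there were in INTS5 (-1.83), INTS8 (-1.75) and INTS15 (-1.06), at -2.41, -2.33 and -1.64 with total-count scaling, and INTS11, the nuclease, rose by 0.59 (0.02 with total-count scaling). Among 20 termination and accessory factors 10 rose and 5 fell. ZC3H4, RTF1 and LEO1 had the largest changes, at -2.05, -1.89 and -1.35 (-2.63, -2.46 and -1.93 with total-count scaling). RTF1 and LEO1 belong to the PAF1 complex that travels with the polymerase, of which CTR9 also fell (-1.29), CDC73 did not pass (-0.03; -0.60 and passed as lower with total-count scaling) and PAF1 rose by 0.32, which turned to -0.25 with total-count scaling. With total-count scaling 1 of these 20 rose and 15 fell.

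Of 7 tested poly(A) tail binders outside the set, 2 rose and 1 fell, and with total-count scaling 1 rose and 6 fell. PAIP2, a protein that displaces PABPC1 from the tail, rose by 2.10 from 124 and 112 CPM to 492, 505 and 525 CPM, and by 1.53 with total-count scaling. ZC3H14 fell by 0.32 (-0.90 with total-count scaling), and LARP1 rose by 0.28, which turned to -0.30 with total-count scaling. Of 14 genes listed as deadenylases, the class of enzymes that removes tails, 5 rose and 4 fell, close to the shares of all genes. With total-count scaling 2 rose and 9 fell. NOCT rose by 2.30, PAN2 by 1.37, and PARN fell by 2.10, each in the same direction with total-count scaling. Of 15 other histone message factors 8 rose and 6 fell, and with total-count scaling 3 rose and 9 fell. They were led by NCBP1 of the cap-binding complex (-1.60), the histone gene regulator HINFP (1.52) and cyclin CCNE2 (-1.25), which kept their sign with total-count scaling.

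Of the 5 Sm proteins that the U7 ring shares with the spliceosome, 4 rose, SNRPB by 1.82, SNRPD3 by 1.70 and SNRPG by 0.46, and with total-count scaling 2 rose and 2 fell. SNRPB and SNRPD3 also rose with total-count scaling, by 1.25 and 1.13, while SNRPG was at -0.11. Of the 3 proteins of the U1 particle, which shields messages from early cleavage, SNRPA rose by 1.68, SNRNP70 fell by 0.80 and SNRPC did not pass (0.05); with total-count scaling SNRPA and SNRNP70 kept their direction and SNRPC passed as lower (-0.52). With SRPIN340, 0 of the 79 rose and 4 fell, against 0.767% and 1.53% of all genes: PPP1CA (-0.65), PAF1 (-0.37), CNOT3 (-0.46) and SRRT (-0.56), which also passed as lower with total-count scaling. At an unadjusted p under 0.05 in edgeR's test there were 2 higher and 12 lower, against 1212 and 1409 of all 14863 genes. DESeq2 gave 1 higher and 7 lower, against 324 and 587 of all genes.

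Several members start head to head with another gene, within 1000 nt on the opposite strand, and the neighbours did not always move with them. AURKA, the mitotic kinase that starts 430 nt from CSTF1, fell by 2.15 (adjusted p = 5.94e-08) from 86.1 and 85.0 CPM to 17.8, 19.7 and 20.2 CPM; with total-count scaling AURKA was at -2.73 and CSTF1 at -0.01. SDHAF2, 149 nt from CPSF7, fell by 1.66, and by 2.24 with total-count scaling. ITGB1BP1, 126 nt from CPSF3, rose by 0.83, and by 0.25 with total-count scaling (adjusted p = 0.0359), while CPSF3 fell under both. ATM, 429 nt from NPAT, did not pass (-0.11, adjusted p = 0.629), though with total-count scaling it passed as lower, at -0.69. OGFOD1, 222 nt from NUDT21, rose by 0.52 as NUDT21 did, and turned to -0.05 with total-count scaling. Of the other neighbours, NDUFB1, 263 nt from CPSF2, rose by 0.70, or by 0.13 without passing with total-count scaling. VRK3 (633 nt from ZNF473, -0.15), PTCD1 (145 nt from CPSF4, -0.25) and ENSG00000256591 (81 nt from CPSF7, -0.20) did not pass. With total-count scaling VRK3 (-0.73) and PTCD1 (-0.82) passed as lower, and ENSG00000256591 (-0.78) did not pass.

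The promoters of CPSF3 and CPSF7 are shown because ITGB1BP1 and SDHAF2 start inside these windows and moved the other way from CPSF3 and CPSF7 under TMM scaling. They are RefSeq promoters on GRCh38.p14, from 250 bases before to 50 after the start of the named gene, 5′ to 3′ on its strand, and capitals mark CGGAAG or its reverse complement CTTCCG.
CPSF3, chr2:9423404-9423703, plus strand: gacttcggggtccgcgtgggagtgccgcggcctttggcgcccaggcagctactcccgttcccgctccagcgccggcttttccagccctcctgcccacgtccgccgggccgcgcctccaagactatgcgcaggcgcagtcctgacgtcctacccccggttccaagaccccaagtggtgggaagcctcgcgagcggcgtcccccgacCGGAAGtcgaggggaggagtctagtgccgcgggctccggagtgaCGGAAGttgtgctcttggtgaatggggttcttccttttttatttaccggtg
CPSF7, chr11:61429926-61430225, minus strand: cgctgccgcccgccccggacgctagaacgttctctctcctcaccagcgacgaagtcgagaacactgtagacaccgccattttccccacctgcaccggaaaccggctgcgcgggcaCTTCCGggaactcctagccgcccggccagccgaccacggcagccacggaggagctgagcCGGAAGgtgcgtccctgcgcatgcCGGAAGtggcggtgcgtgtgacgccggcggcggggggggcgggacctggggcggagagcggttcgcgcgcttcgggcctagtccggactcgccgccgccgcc
Of the 31 members, 25 were in the table of promoters. CGGAAG, the core that ETS factors read, occurred on either strand in 13 of 25 (52.0%) and in 25.9% of 15328 promoters of the same 300 bases, and CCAAT in 13 of 25 (52.0%) against 36.6%. TATAAA and TGACTCA occurred in 0 of 25, against 9.6% and 3.7% of all. CACGTG occurred in 1 (4.0% against 8.9%) and TGACGTCA in 2 (8.0% against 2.6%). All were searched on both strands, and none of these words contains another. Of the members with a promoter in the table, CGGAAG occurred in 5 of the 7 that fell in acidosis, in 7 of the 14 that rose under TMM scaling and in 1 of the 4 that did not pass. CPSF3, CPSF6, CSTF2, CSTF3 and NPAT were the fallers that held it.

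Beyond role, the members were compared by properties of their transcripts. The GC content of the canonical transcript went with the change in acidosis across the 31 members with a Spearman rho of 0.49 (Pearson r 0.43), against a rho of 0.05 over 14862 genes. These are descriptions across genes from the same 7 libraries, not across replicates. The 18 members that rose had GC contents of 37.0% to 62.3% with a median of 45.7%, and the 7 that fell had 36.9% to 48.8% with a median of 42.3%. Each member with a GC content over 50% had a positive log2 fold change under TMM, LSM10, CPSF1 and SYMPK among them; with total-count scaling PABPN1, one of these, was at -0.42. Transcript length (rho 0.02) and the number of exons (0.12) went with the change less, and the mean level gave 0.40 against 0.27 over all genes. The part of GC content or level in the members' changes was not tested.

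**Figure D5:**
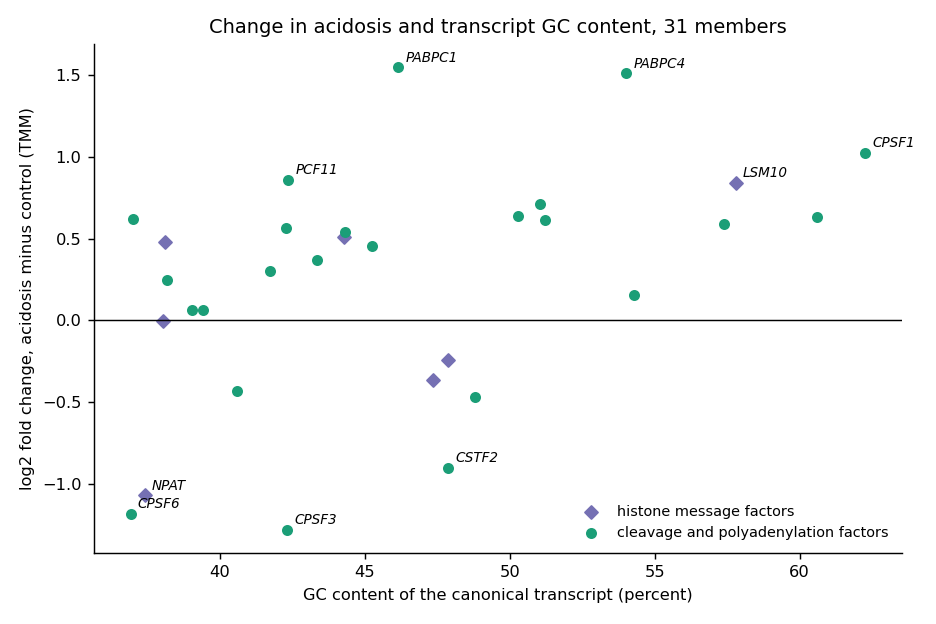
Log2 fold change in acidosis against control (TMM scaling, vertical axis) and GC content of the canonical transcript in percent (horizontal axis) for 31 factors; diamonds are histone message factors and circles the other factors. CPSF6, NPAT and CPSF3 lie low at 36.9% to 42.3% GC, PABPC1 and PABPC4 lie highest, and values shift lower with total-count scaling, PABPN1 at 54.3% GC turning to -0.42.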

How the data were processed

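Poly(A) RNA was captured with the KAPA mRNA Capture Kit and sequenced on a NextSeq 1000. Per the labels and the study's methods, reads were trimmed (Trimmomatic 0.39, Trim Galore 0.6.6) and quantified with Salmon 1.5.1 against Gencode GRCh38.p13. The authors deposited estimated counts per gene from tximport, which can be fractional and carry no scaling across samples; the tximport option is not given in the sources used here. The table holds 19978 genes in 7 samples with totals of 13615816 to 24110460, which limits the precision of weakly expressed genes most in acidosis. Gene symbols were matched to GENCODE release 44 for 19977 identifiers.

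Rounded counts entered edgeR 4.0.16 under R 4.3.3 (glmQLFit and glmQLFTest, the quasi-likelihood test; TMM, filterByExpr, 14863 genes, all 7 samples in one fit with 3 groups, no covariate). Adjusted p-values are Benjamini-Hochberg over all genes tested, with 0.05 as threshold, and standard errors come from the test statistic. The code was tested on simulated data. Log2 ratios within a library used counts with 0.5 added and an exact two-sided permutation test (scipy 1.17.1). DESeq2 1.42.0, RLE size factors, total count only, no filter, a repeat block, only the groups compared, a fold limit and each sample left out were alternatives. Summing 3 members with overlapping read-through genes was added after the data were seen. Sites were read from the GRCh38 reference with Python 3.11.15 and promoters from RefSeq; figures used matplotlib 3.10.9.

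All 31 members were named. Values in every sample were given for the histone message factors, for members past a log2 fold change of 1 in any comparison, for members that passed with SRPIN340 and for the member with the largest change in acidosis in each other role group; values added for SYMPK, CSTF2T, CPSF7, CLP1, PAPOLA and PAPOLG were chosen after they were seen, as were the head-to-head neighbours. Of each pathway list, the 3 genes that passed with the largest change and without overlap were named; INTS11, SNRPC, CTR9, CDC73 and PAF1 were added. The members and lists were chosen with earlier results of these data known. The inhibitor is called SRPIN340 in the sample titles, and a number in the treatment text differs. The level of 1 list of cell line markers is not reported here.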

Additional observations from a re-analysis of the deposited data

How the results depend on the processing

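The scaling mattered most. Against control, total-count scaling gave 4 members higher and 14 lower in acidosis in place of 18 and 7 (11 and 56 pathway genes in place of 33 and 28); against SRPIN340 it gave 5 and 14 members (15 and 51 pathway genes). The log2 fold changes it reversed in acidosis against control were LSM11 -0.067, CASP8AP2 -0.095, FIP1L1 -0.27, CPSF2 -0.51, CSTF1 -0.010, CSTF2T -0.20, PAPOLA -0.51, PAPOLG -0.32, RBBP6 -0.032, SCAF8 -0.12 and PABPN1 -0.42. Against SRPIN340 they were LSM11 -0.46, CASP8AP2 -0.23, CPSF4 -0.088, FIP1L1 -0.20, CPSF2 -0.45, CSTF1 -0.084, NUDT21 -0.058, PAPOLA -0.56, PAPOLG -0.54, RBBP6 -0.038 and SCAF8 -0.013. RLE size factors, DESeq2 and the absence of a filter changed no member's call in any comparison. The fold limit left 3 members higher and 3 lower in acidosis against control (9 and 12 pathway genes), 4 and 2 against SRPIN340 (12 and 9), and 0 members and 0 pathway genes lower with SRPIN340.

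The correlation of same-numbered samples' deviations from their group means was -0.146 to 0.0715. In a group of 2 samples these deviations mirror each other, so the correlations cannot settle whether repeat numbers paired the samples. Fitting only the 2 groups compared lost the FIP1L1 call in acidosis (0.28, adjusted p = 0.0667) and no other member's. With the replicate block, the FIP1L1 and CLP1 calls in acidosis (adjusted p = 0.134 and 0.0541) and the PABPN1 call with SRPIN340 (0.108, leaving 0 members lower) were lost, and 1 pathway gene was lower with SRPIN340. Leaving out each sample in turn, members lower with SRPIN340 numbered 0 to 1 and pathway genes 0 to 4; without control replicate 1 CSTF3 and without control replicate 2 CSTF2T and CLP1 lost their calls in acidosis, and FIP1L1 and CSTF3 lost theirs against SRPIN340 without SRPIN340 replicate 1 (CSTF3 also without replicate 2). DESeq2 gave 1 pathway gene higher and 7 lower with SRPIN340, against 324 and 587 of all 14863 genes. Every ratio whose groups did not overlap kept its sign without a pseudocount and without any sample, and the causes of these shifts were not tested.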
